A study of Mus musculus with 2 samples.

Results

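The genes described here encode potassium, calcium, chloride and transient receptor potential (TRP) channels, with their accessory subunits, the STIM and Orai proteins of store-operated calcium entry, inositol trisphosphate receptors, anoctamins, Piezo1 and the proton channel Hvcn1. They were chosen by gene symbol among probe sets assigned to exactly 1 gene, with Clcn7 left out by name. A gene was kept when a probe set reached the median signal of the array's non-control probe sets on 1 or both arrays. This gave 69 genes out of 154 whose symbols fitted, which were read by 315 probe sets, and the other 85 genes stayed under that median with every probe set on both arrays. Over the whole array, the same median was reached by the chosen probe set of 11722 genes.

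Bone-marrow-derived macrophages of C57BL6 mice, grown in RPMI with 10% fetal bovine serum and macrophage colony-stimulating factor (M-CSF), were either left without lipopolysaccharide (LPS) or treated with it. LPS is a component of the Gram-negative outer membrane that Toll-like receptor 4 senses. The labels give 1 array for each condition and state neither the dose nor the time of LPS, the age or sex of the mice, nor whether animals were pooled. Each RNA was hybridized to an Affymetrix array of the type Mouse Genome 430 2.0, where 1 gene can have several probe sets, and each value is a MAS5 signal on a linear scale. There are no replicates, so no difference below has an error or a test, and each describes these 2 arrays. In such bulk RNA, fewer cells that express a gene and less RNA in each cell cannot be told apart.

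Ion channels let selected ions cross a membrane down their electrochemical gradient. In macrophages, potassium channels set the membrane voltage, and potassium efflux is a known trigger of the NLRP3 inflammasome. Calcium enters mainly by the store-operated route: receptor signalling makes inositol trisphosphate, its receptor releases calcium from the endoplasmic reticulum, STIM proteins sense the emptied store, and Orai proteins open in the plasma membrane. Chloride transporters of the Clcn family act mostly in endosomes and lysosomes, and TRP channels are cation channels opened by diverse chemical and physical stimuli.

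Each array's median signal was used as its floor, 35.1 for the control and 26.7 for LPS. A signal under the floor was raised to it, a fold resting on such a value is written as at least, and every ratio is log2 LPS minus log2 control of the gene's brightest probe set. Over the 11722 genes the median log2 ratio was -0.42. Without that shift, that is, after the ratios were centred on this median, the split of all genes moved from 964 higher and 3076 lower by at least 2-fold to 1537 and 1790. The cytokine genes that serve as a check of the LPS label were far apart, as with Tnf at 102 and 6982, and all 8 macrophage markers examined, among them Csf1r and Adgre1, were above the floor on both arrays. Of 47 markers of 9 other cell types, 11 reached the floor without LPS and 11 with it. The 7 neutrophil markers summed to 422 and 708, with S100a8 at 270 and 440 and Mpo, Elane and Camp under both floors. The megakaryocyte and platelet list summed to 6804 and 5679, nearly all of it Pf4 at 6623 and 5537. Of its other members, Itga2b had 104 and 94.7, Ppbp had 51.2 and 22.3, under the LPS floor, and Gp9 and Gp1bb were under both floors. The B cell list summed to 179 and 85.4, with Cd79b at 110.0 and 35.3, 3.11-fold lower and the 1 marker of the 9 lists past 2-fold. The sums of the remaining 6 lists lay between 38.3 and 126 in the control and between 56.8 and 110.0 with LPS. What part such cells have in the channel signals was not tested.

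Of the 69 channel genes, 68 had a ratio. For Kcnj6 the brightest probe set was under both floors. Higher by 2-fold or more with LPS were 3 genes, Clic4, Clic5 and Orai2, which is 4.41% of the 68 against 8.22% of all measured genes. Lower by 2-fold or more were 8 genes, Kcnk13, Kcnab2, Kcnk6, Orai3, Stim1, Clcn4, Kcnj10 and Hvcn1, or 11.8% against 26.2% of all measured genes, and 57 did not pass 2-fold. Of these 57, 28 were above the floor on both arrays, and for the others, under 1 floor, the ratio is limited by the floor and does not show that they differ by less than 2-fold. Together the 11 made up 16.2%, against 34.5% of all measured genes past 2-fold either way. The median log2 ratio of the 68 was -0.35, close to the -0.42 of all genes. After median centring 5 were higher and 5 lower, against 13.1% and 15.3% of all genes, because Kcnab1 and Stim2 then passed 2-fold upward and Clcn4, Hvcn1 and Kcnj10 no longer passed it downward. These signals also chose the genes, so the counts are given as a description.

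**Figure D1:**
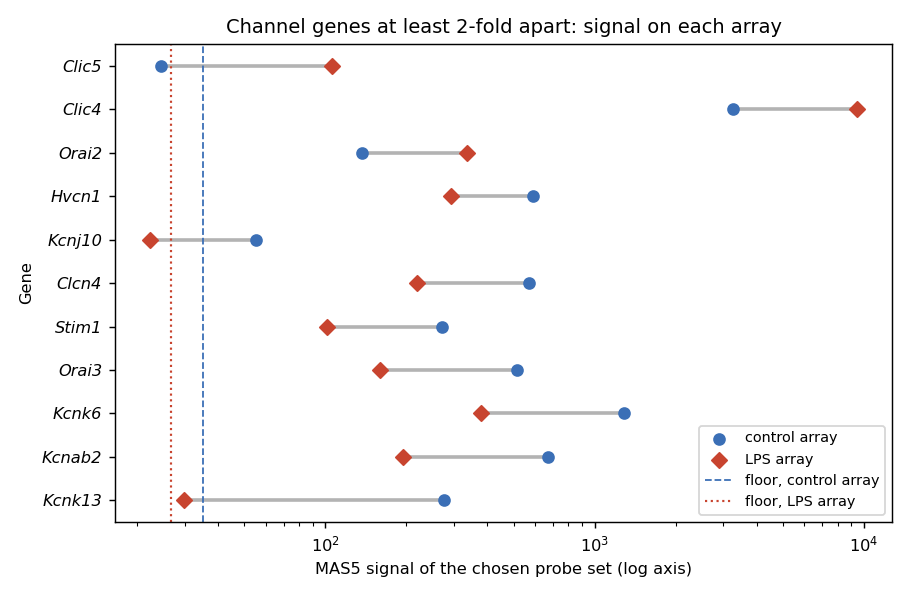
MAS5 signal (log axis) of the 11 channel genes at least 2-fold apart, with a circle for the control array and a diamond for the LPS array, 1 array each, and the floors as vertical lines. Clic5 lies under the floor on the control array and Kcnj10 on the LPS array, and Kcnk13 lies at 275 and at 29.9, just above the LPS floor.

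Dim signals made up much of the set. At a mean log2 signal under 7, with the floors applied, lay 43 of the 68 genes, beside 4573 of all 11722 measured genes. The floor was reached on both arrays by 37 genes, on the control array alone by 14 and on the LPS array alone by 17. This split was not counted over all measured genes, so it is not shown to be particular to the channel genes. The 14 had control signals from 36.1 to 55.3 and LPS signals from 6.33 to 25.6, and 1 of them, Kcnj10, passed 2-fold. The 17 had LPS signals from 27.3 to 106 and control signals from 1.51 to 27.6, and 1 of them, Clic5, passed 2-fold. Among the other 16 the highest LPS signal was 61.4, that of Kcnab1. The floors themselves differ by -0.39 on the log2 scale, so a gene just over the LPS floor and under the control floor gets a small negative ratio although its LPS signal is the higher one. Just inside the limit, the signal of Kcnk7 was 1.02 times and that of Kcnip1 1.03 times the floor, and just outside it Kcnip4 reached 0.969 and Cacng4 0.942 of the floor.

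At or above the 75th percentile of both arrays, at signals of at least 192 and 130, there were 20 of the channel genes. Of these, Clic4 was past 2-fold upward, 5 (Clcn4, Hvcn1, Kcnab2, Kcnk6 and Orai3) were past it downward and 14 lay within 2-fold, with a median of -0.34. All 5703 genes in that range had a median of -0.35, with 9.07% higher and 19.7% lower.

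**Figure D2:**
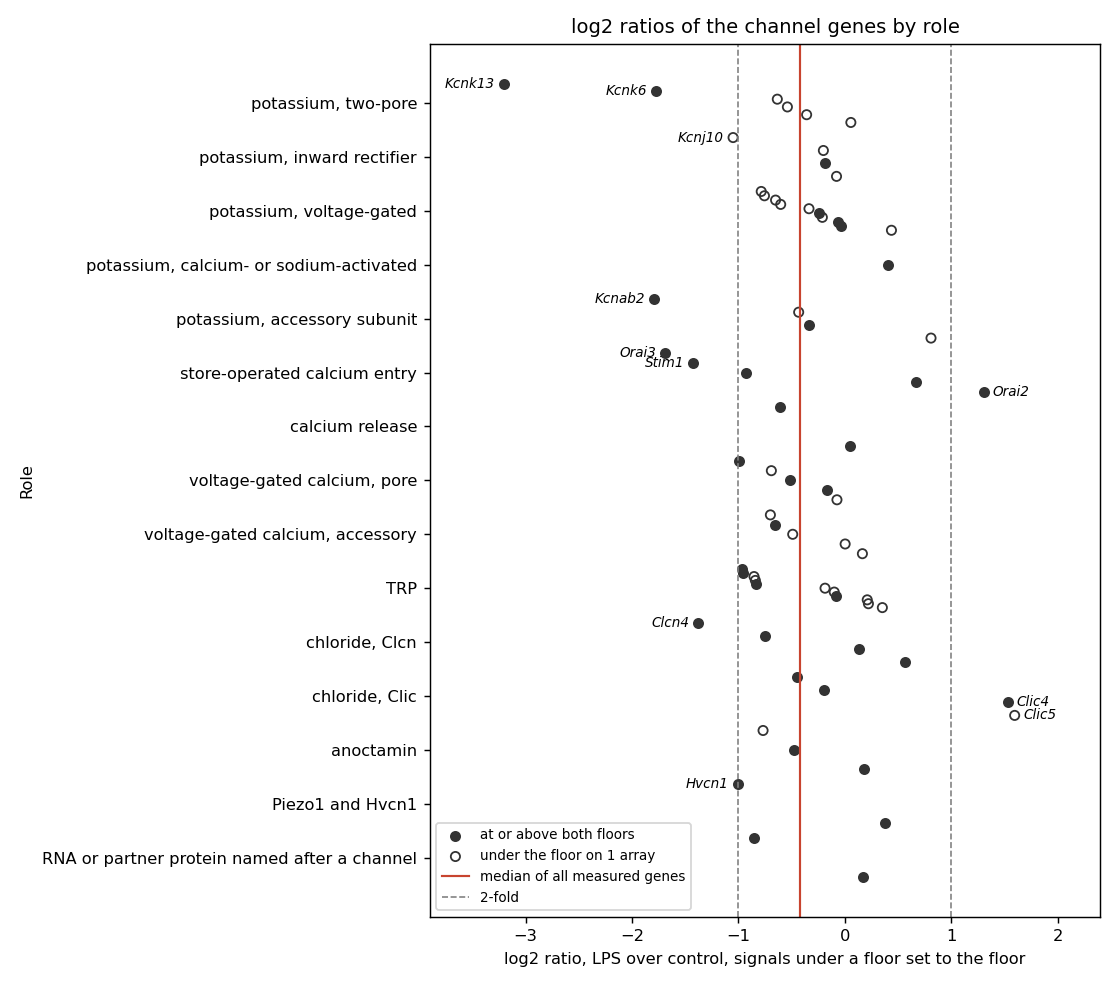
log2 ratio, LPS over control, of the 68 channel genes with a ratio, in rows by role; filled points reach the floor on both arrays and open points on 1. Most points lie between the dashed 2-fold lines and around the median of all measured genes (-0.42, solid line); the 11 genes outside are named.

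By their brightest probe sets, closely related genes of store-operated calcium entry lay on opposite sides of 0. The other Orai2 probe set, at -0.03, did not lie above 0. All 5 genes were above the floor on both arrays. Orai1 and Orai3 encode pore subunits, as does Orai2, while Stim1 and Stim2 encode the calcium sensors of the endoplasmic reticulum. Of the 5, Orai2 was past 2-fold upward and Orai3 and Stim1 downward, beside 8.22% and 26.2% of all measured genes.

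The promoter windows of Orai2, Orai3, Stim1 and Stim2 are shown because the ratios within each pair had opposite signs on the brightest probe sets. Those of Clic4, the gene with all its probe sets past 2-fold upward, and Kcnk13, the gene with the lowest ratio, are also shown. Each runs from 250 bases before to 50 after the RefSeq gene start, 300 bases in all, on assembly GRCm38.p6. They lie at chr5:136170607-136170906 (minus strand) for Orai2, chr7:127769565-127769864 (plus) for Orai3, chr7:102267569-102267868 (plus) for Stim1, chr5:53998273-53998572 (plus) for Stim2, chr4:135272711-135273010 (minus) for Clic4 and chr12:99964249-99964548 (plus) for Kcnk13. The capitals mark CpG dinucleotides.
Orai2: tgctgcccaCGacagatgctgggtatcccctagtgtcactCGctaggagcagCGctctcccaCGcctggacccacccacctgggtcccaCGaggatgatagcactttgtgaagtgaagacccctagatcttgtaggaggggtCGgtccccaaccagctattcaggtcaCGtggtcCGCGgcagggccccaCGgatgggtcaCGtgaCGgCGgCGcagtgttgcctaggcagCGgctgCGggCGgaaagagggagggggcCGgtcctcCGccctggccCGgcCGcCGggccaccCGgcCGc
Orai3: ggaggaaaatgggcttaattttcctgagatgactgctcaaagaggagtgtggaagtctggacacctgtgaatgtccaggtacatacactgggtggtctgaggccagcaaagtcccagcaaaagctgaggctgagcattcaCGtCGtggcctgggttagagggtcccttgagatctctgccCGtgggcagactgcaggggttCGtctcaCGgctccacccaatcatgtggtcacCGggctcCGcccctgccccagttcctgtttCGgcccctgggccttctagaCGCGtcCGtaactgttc
Stim1: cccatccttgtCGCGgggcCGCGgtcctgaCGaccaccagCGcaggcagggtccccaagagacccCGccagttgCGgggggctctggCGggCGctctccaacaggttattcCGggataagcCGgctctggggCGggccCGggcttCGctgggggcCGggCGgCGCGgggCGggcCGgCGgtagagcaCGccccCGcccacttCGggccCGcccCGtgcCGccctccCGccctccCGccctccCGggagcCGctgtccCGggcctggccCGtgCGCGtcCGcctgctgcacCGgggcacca
Stim2: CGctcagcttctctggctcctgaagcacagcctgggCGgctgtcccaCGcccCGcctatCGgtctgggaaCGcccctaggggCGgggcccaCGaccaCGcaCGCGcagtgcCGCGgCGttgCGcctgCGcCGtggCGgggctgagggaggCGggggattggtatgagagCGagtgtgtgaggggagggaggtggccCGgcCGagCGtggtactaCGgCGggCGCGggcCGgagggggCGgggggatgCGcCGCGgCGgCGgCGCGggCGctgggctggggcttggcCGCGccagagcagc
Clic4: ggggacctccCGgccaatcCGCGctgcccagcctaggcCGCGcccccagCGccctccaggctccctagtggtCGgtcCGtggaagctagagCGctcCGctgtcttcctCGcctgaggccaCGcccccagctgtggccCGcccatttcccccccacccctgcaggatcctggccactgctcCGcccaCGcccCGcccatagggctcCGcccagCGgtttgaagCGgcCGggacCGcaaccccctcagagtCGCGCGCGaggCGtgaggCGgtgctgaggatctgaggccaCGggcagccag
Kcnk13: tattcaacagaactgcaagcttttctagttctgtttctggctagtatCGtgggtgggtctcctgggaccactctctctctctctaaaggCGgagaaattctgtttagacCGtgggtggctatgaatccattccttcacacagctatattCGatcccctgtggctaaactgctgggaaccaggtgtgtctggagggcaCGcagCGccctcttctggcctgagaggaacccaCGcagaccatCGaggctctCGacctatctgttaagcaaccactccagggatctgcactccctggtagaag
All 6 windows held more CpG than the median window. Those of Stim1 and Stim2 held 38 and 39 CpG, those of Clic4 and Orai2 28 and 24, and those of Orai3 and Kcnk13 11 and 9, against a median of 7 over all 32851 windows. The windows of channel genes not past 2-fold, Stim2 among them, had a median of 10, above Kcnk13 and just under Orai3. In the Orai2 window the palindrome CACGTG, an E-box, occurs at 2 places, starting 84 and 51 bases before the gene start, and 7.15% of all windows hold it at least once.

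RefSeq windows were found for 58 of the 69 genes, among them all 3 higher genes and 6 of the 8 lower ones (9 windows). The 8 motifs searched on both strands were the NF-kB consensus, TGANTCA (AP-1), TGACGTCA (cAMP response element), the interferon-stimulated response element, TTCNNNGAA (STAT), CACGTG (the E-box), AGGAAGT (the Ets site) and TATAAA (the TATA box). In the 3 windows of the higher genes 1 held CACGTG, that of Orai2, and the other 7 motifs had no match there. In the 9 windows of the lower genes, TGACGTCA and CACGTG each occurred in 1 window, both of Clcn4, and AGGAAGT in 1 of Kcnab2. The NF-kB consensus occurred in 0 of these 12 windows, in 2 of the 59 windows of the genes not past 2-fold and in 4.51% of all windows. A match is a run of letters in this window and was not tested for binding.

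Orai2 had a signal of 136 without LPS and 337 with it, 2.47-fold higher. Its other probe set read 121 and 118, a log2 ratio of -0.03, so the median of both probe sets, 0.63, does not pass 2-fold. Orai3 went from 515 to 160, 3.22-fold lower, and stayed past 2-fold in all 11 other ways of processing the signals, between -1.69 and -1.06 on the log2 scale. Of these, the floor and probe set alternatives left its value unchanged, and only the 5 scalings and the pseudocount moved it. Orai1, the main pore subunit of store-operated entry in immune cells, had 424 and 223, a log2 ratio of -0.93 that lay within 2-fold, and -0.41 on its other probe set. The Orai2 ratio exceeded the Orai3 ratio by 2.99 on the log2 scale, or 7.95-fold, and by 1.65 with the dimmer Orai2 probe set. It exceeded the Orai1 ratio by 2.23, or by 0.38 over the least favourable pair of probe sets. A scaling common to a whole array cancels in such differences.

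Stim1 had signals of 272 and 101, 2.69-fold lower, and its other probe set read 238 and 111, a log2 ratio of -1.10. Under quantile normalization and loess its ratio no longer passed 2-fold and was -0.86 and -0.68. Stim2, which responds to smaller falls of the calcium store than Stim1, had 376 and 597, a log2 ratio of 0.66 within 2-fold that became 1.09 after median centring. The Stim2 ratio exceeded that of Stim1 by 2.09 on the log2 scale, or 4.26-fold, and by 1.77 with the other Stim1 probe set. In both families the brightest-probe-set ratios as deposited thus lay on opposite sides of 0, Orai2 and Stim2 above and Orai3 and Stim1 below. The other Orai2 probe set, at -0.03, was not above 0.

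Of the inositol trisphosphate receptor genes, which encode the calcium release channels, Itpr2 and Itpr3 could be followed and neither passed 2-fold. Itpr2 had 202 and 209, with 6 probe sets between -0.34 and 0.49. Itpr3 had 122.6 and 80.3, and its log2 ratio of -0.61 has the opposite sign under quantile normalization and loess.

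Potassium channel genes were 83 by symbol, of which 26 reached the floor and 25 had a ratio. Of the 25, 0 passed 2-fold upward and 4 downward, against 8.22% and 26.2% of all measured genes, and their median was -0.34. Only 9 of the 25 were above the floor on both arrays. The ratios of the others are limited by a floor, which also bears on these counts and the median. Both two-pore-domain genes above the floor on both arrays were lower. Kcnk13 encodes THIK-1, a leak channel that sets the resting voltage of microglia. Its signal was 275 without LPS and 29.9 with it, 9.20-fold lower. This was the lowest ratio among the 68 genes, and it lay between -3.20 and -2.20 on the log2 scale in all 11 alternatives. The lower floor, the requirement of both floors and the probe set alternatives left it at -3.20. Its other probe set was under both floors, at 6.03 and 0.890, so 1 probe set carries this value.

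Kcnk6, which encodes TWIK-2, a channel of potassium efflux in macrophages, had 1288 and 377, 3.41-fold lower, with alternatives between -1.77 and -1.35 and no second probe set. The 4 remaining members of that family with a ratio, Kcnk4, Kcnk7, Kcnk12 and Kcnk16, reached the floor on 1 array only, and their ratios with the floor lay between -0.64 and 0.06. Kcnab2 encodes an accessory beta subunit of voltage-gated potassium channels with an aldo-keto reductase fold. It had 669 and 194, 3.46-fold lower, and its other probe set read 182 and 28.9, a log2 ratio of -2.65. In all 11 alternatives Kcnab2 stayed past 2-fold, between -2.22 and -1.23. Kcnab1, another beta subunit gene, was under the control floor at 27.1 and had 61.4 with LPS, a log2 ratio of at least 0.81.

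Among the inward rectifiers, Kcnj10, a gene best known from glial cells, had 55.3 in the control and 22.3, under the floor, with LPS, a fold of at least 2.07 downward. It passed 2-fold in 4 of the 9 alternatives that gave it a value, namely the lower floor, hybridization scaling and the probe set alternatives. The probe set alternatives could not change its value, as it has 1 probe set. Kcnj11, the pore subunit gene of the ATP-sensitive potassium channel, had 590 and 518, and its log2 ratio of -0.19 has the opposite sign under 4 of the 5 scalings tried.

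Kcnn4, which encodes the calcium-activated channel KCa3.1 of immune cells, had 1195 and 1581, a log2 ratio of 0.40, and 0.15 on its other probe set, within 2-fold. None of the 10 voltage-gated pore subunit genes passed 2-fold, beside 34.5% of all measured genes, but 7 of them were under 1 floor and so have a limited ratio. Kcng2 had 46.0 and 15.7, under the floor, at least 1.72-fold lower. Kcna3, the Kv1.3 channel gene, had 27.5, under the floor, and 47.5, a log2 ratio of at least 0.44. Kcnh3 was above both floors at 179 and 174, and its 3 probe sets ranged from -0.88 to -0.03.

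Chloride channel and transporter genes numbered 8 of 11, not counting Clcn7, which the rule left out. Of the 8, 2 were past 2-fold upward and 1 downward, beside 8.22% and 26.2% of all measured genes. After median centring 2 were past 2-fold upward and 0 downward, against 13.1% and 15.3% of all genes. The Clic proteins share the fold of glutathione transferases and exist in soluble and membrane forms. Clic4 had 3280 in the control and 9455 with LPS, 2.88-fold higher. All 3 of its probe sets were higher, by 1.53, 1.90 and 2.51 on the log2 scale, and the ratio stayed between 1.42 and 1.95 in all 11 alternatives. Clic5, whose product is linked to the actin cytoskeleton through ezrin, had 24.5, under the floor, and 106, at least 3.02-fold higher. Its 4 probe sets each had a higher signal on the LPS array, but with floors they ranged from -0.02 to 1.59, and the value was 0.22 at a higher floor (65th percentile) and 0.75 as the median of the probe sets. Clic1 had 4575 and 3988, and its log2 ratio of -0.20 has the opposite sign with median centring or poly-A scaling. The Clic4 ratio exceeded it by 1.73, or 3.31-fold.

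The endosomal exchanger genes of the Clcn family differed among themselves. Clcn4 had 569 and 218, 2.60-fold lower, with -1.61 on its other probe set. It did not pass 2-fold under quantile normalization, median centring or loess, where the ratio lay between -0.997 and -0.81. Clcn3 had 546 and 323, a log2 ratio of -0.76 within 2-fold, with 5 probe sets from -0.84 to -0.01. Clcn5 had 892 and 977, and its 4 probe sets lay between 0.13 and 0.34. Clcn6 had 125 and 184, a log2 ratio of 0.56, and 0.71 on its other probe set. The Clcn6 ratio exceeded the Clcn4 ratio by 1.94 on the log2 scale, or 3.84-fold, and the Clcn5 ratio did so by 1.51.

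None of the 11 TRP channel genes with a ratio passed 2-fold on the brightest probe set, beside 34.5% of all measured genes. Above the floor on both arrays were 4 of them, and the other 7 have a ratio limited by the floor. Trpm7, which encodes a channel fused to a kinase and carries magnesium and calcium, had 1847 and 1038, a log2 ratio of -0.83, and its 4 probe sets lay between -0.83 and -0.42. Trpv2, a channel known for its part in macrophage phagocytosis, had 1657 and 845, a log2 ratio of -0.97. Trpm2, opened by ADP-ribose, had 109 and 56.5, a log2 ratio of -0.95, against -0.13 on its other probe set. Trpm4 had 120 and 113. Trpv2, Trpm2 and Trpm7 thus lay close to the 2-fold limit, as did Cacna1a at -0.99 and Orai1, while Hvcn1 at -1.01 and Kcnj10 at -1.05 lay just past it.

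The remaining TRP genes were near the floor. Trpc2 and Trpv4 were above it on the control array alone, and Trpc5, Trpc7, Trpm5, Trpm6 and Trpv6 on the LPS array alone, with floored ratios from -0.85 to 0.35. Trpv4 had 48.2 and 6.33, at least 1.81-fold lower. The other Trpc2 probe set read 66.5 and 12.8, under the floor, a log2 ratio of -1.32 that is past 2-fold.

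Voltage-gated calcium channel genes, which are best known from nerve, muscle and endocrine cells, were 24 by symbol and 10 by signal. None of the 10 passed 2-fold, beside 34.5% of all measured genes, and their ratios lay between -0.99 and 0.16 with a median of -0.50. Of the 10, 6 were under 1 floor. The 4 above the floor on both arrays were Cacna1a, Cacna1d, Cacna1f and Cacng7. Cacna1f, an L-type pore gene, had 142 and 126. Cacna1d had 106 and 73.8, with 0.17 on its other probe set. Cacna1a, the P/Q-type pore gene, had 70.2 and 35.3, and its 3 probe sets above the floor ranged from -2.02 to -0.45.

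Hvcn1 encodes the voltage-gated proton channel, which carries protons out during the oxidative burst of phagocytes. It had 591 and 294, 2.01-fold lower. Under each of the 5 scalings and with the pseudocount of 16 it no longer passed 2-fold, with -0.58 after median centring. The other 5 of the 11 alternatives left its value unchanged and so could not test it. Piezo1, the mechanically gated cation channel gene, had 714 and 928, a log2 ratio of 0.38. Ano6, which encodes a calcium-activated lipid scramblase and channel, had 984 and 1112, with 2 probe sets at -0.06 and 0.18. Ano10 had 219 and 158, and its log2 ratio of -0.48 has the opposite sign under quantile normalization and loess. Ano8 was above the floor on the control array alone.

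The rule also took in 2 genes that are no channels. Kcnq1ot1 is a noncoding RNA of the Kcnq1 locus with 108 and 59.8, and its 4 probe sets above the floor lay between -1.83 and -0.59. Trpc4ap encodes a protein named for its association with Trpc4 and had 516 and 579.

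Probe sets of a gene give the one internal gauge of agreement. Of the 69 genes, 23 had at least 2 probe sets at the floor or above on an array, and in 17 of them all these had the same sign. This share was not counted over all genes. With a median of -0.42 over all genes, probe sets can share a negative sign without agreeing, so the count does not measure agreement. The median SD of the log2 ratios was 0.30 over the 18 genes with at least 2 probe sets above both floors, against 0.28 over 4494 genes of the whole array. These probe sets read the same 2 RNA samples and are no replicates of the condition.

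**Figure D3:**
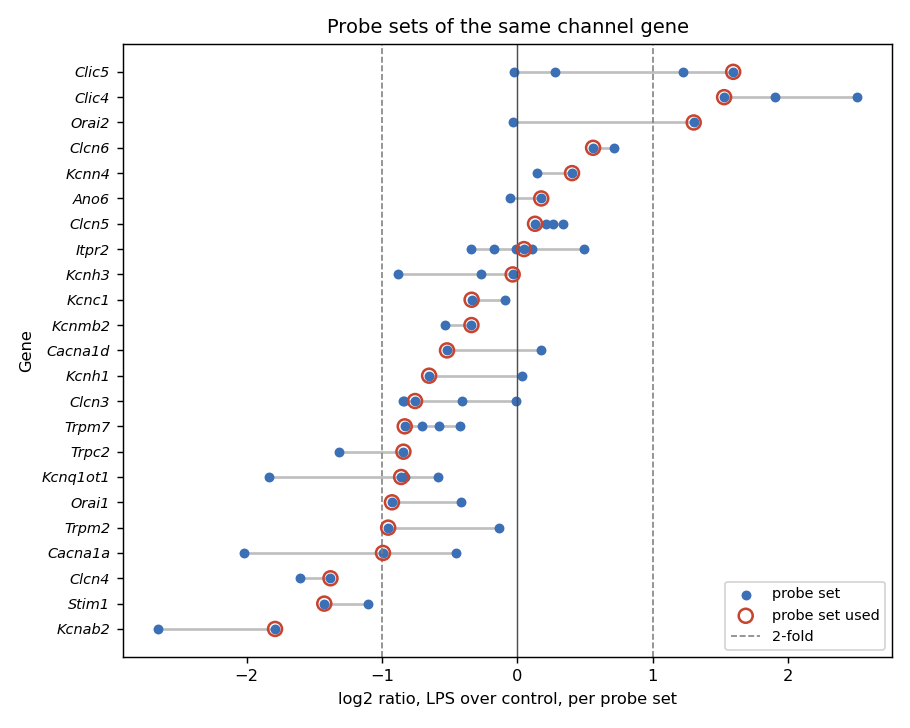
log2 ratio, LPS over control, of each probe set at or above the floor on at least 1 array, for the 23 channel genes with 2 or more of them; the ring marks the brightest, which was used. The 3 probe sets of Clic4 lie above the upper 2-fold line, and those of Kcnab2, Stim1 and Clcn4 below the lower one, whereas Orai2 and Clic5 spread from about no difference to past 2-fold.

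**Figure D4:**
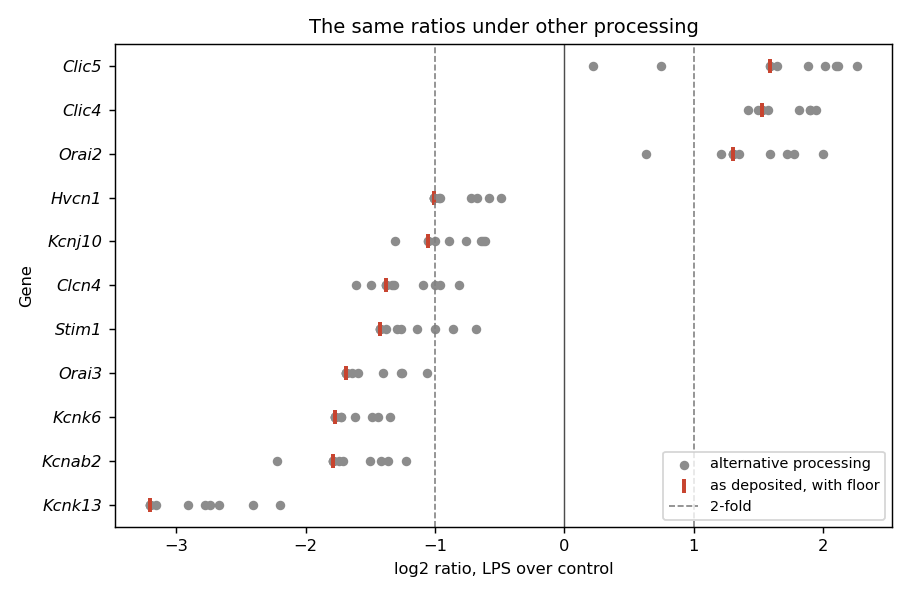
log2 ratio, LPS over control, of the 11 genes past 2-fold, with a red bar for the signals as deposited and grey points for up to 11 alternative ways of processing. Clic4, Orai3, Kcnk6, Kcnab2 and Kcnk13 keep all their points outside the dashed 2-fold lines, and no gene crosses 0.

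Genes that work beside these channels were taken from 7 lists of other channels, pumps, exchangers and calcium-handling proteins, 87 genes on the array, of which 66 had a ratio. The lists were chosen with earlier results of these data known, so their counts are a description. Of the 66, 3 passed 2-fold upward and 18 downward, that is 4.55% and 27.3% against 8.22% and 26.2% of all measured genes, with a median of -0.36. After median centring 9 were higher and 12 lower, against 13.1% and 15.3% of all genes.

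Other cation channels held 7 of the 18 lower genes among 13 measured, beside 26.2% of all measured genes, with a median of -1.08. After median centring 5 of the list were lower and 2 higher, against 15.3% and 13.1% of all genes, with a list median of -0.66. Tpcn1 and Tpcn2 encode the two-pore channels of endolysosomes. Tpcn1 had 1018 and 114, 8.91-fold lower, but -1.58 on the log2 scale with its other probe set. Tpcn2 had 280 and 67.1, 4.17-fold lower. The 3 mucolipin genes, TRP-type channels of the same organelles that the symbol rule did not take in, differed: Mcoln1 had 571 and 232 and Mcoln3 336 and 63.6, 2.46-fold and 5.28-fold lower, and Mcoln2 had 691 and 1614, 2.33-fold higher. P2rx7, the ATP-gated channel whose opening lets potassium out of macrophages, had 926 and 80.1, 11.6-fold lower, with 3 probe sets between -3.53 and -1.29.

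Other anion channels held 6 of the lower genes among 11 measured, beside 26.2% of all measured genes, with a median of -1.07. After median centring 3 of the list were lower and 2 higher, against 15.3% and 13.1% of all genes. Lrrc8a and Lrrc8d, subunits of the volume-regulated anion channel, were 2.35-fold and 2.51-fold lower, and Lrrc8c had a log2 ratio of 0.83, against 2.202 on its other probe set. Ttyh2 was 4.23-fold and Ttyh3 3.15-fold lower. Pacc1, the proton-activated chloride channel gene, had 596 and 52.4, 11.4-fold lower, but its 4 probe sets ranged from -3.68 to 0.00.

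Within the calcium lists, Slc8b1, the mitochondrial sodium-calcium exchanger gene, had 870 and 208, 4.18-fold lower. On the brightest probe set it was the 1 pump or exchanger past 2-fold among 7 measured, beside 34.5% of all measured genes. The pump gene Atp2b1 had a log2 ratio of -0.62, with 3 probe sets between -1.02 and -0.62. Cracr2b, whose product regulates Orai channels, had 222 and 19.1, under the floor, at least 8.33-fold lower. Stimate, a promoter of STIM activation, had 78.5 and 160, 2.04-fold higher, but its other probe set was at -1.02. Homer3 was 2.24-fold lower. Saraf, which inactivates store-operated entry, had 3296 and 1851, a log2 ratio of -0.83. Of 10 inositol trisphosphate signalling genes, Plcb2 was 2.93-fold and Plcg1 at least 4.14-fold lower, beside 26.2% of all measured genes past 2-fold downward. However, the other Plcg1 probe set was at -0.29. The 5 mitochondrial uniporter genes all lay within 2-fold, beside 34.5% of all measured genes past it. In the sodium-potassium pump and chloride cotransport list, 1 of 10 genes was past 2-fold on the brightest probe set, beside 34.5% of all measured genes. It was the potassium-chloride cotransporter gene Slc12a4, with 152 and 637, 4.19-fold higher. Slc12a2 had a log2 ratio of -0.87, with 3 probe sets between -1.38 and -0.73.

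**Figure D5:**
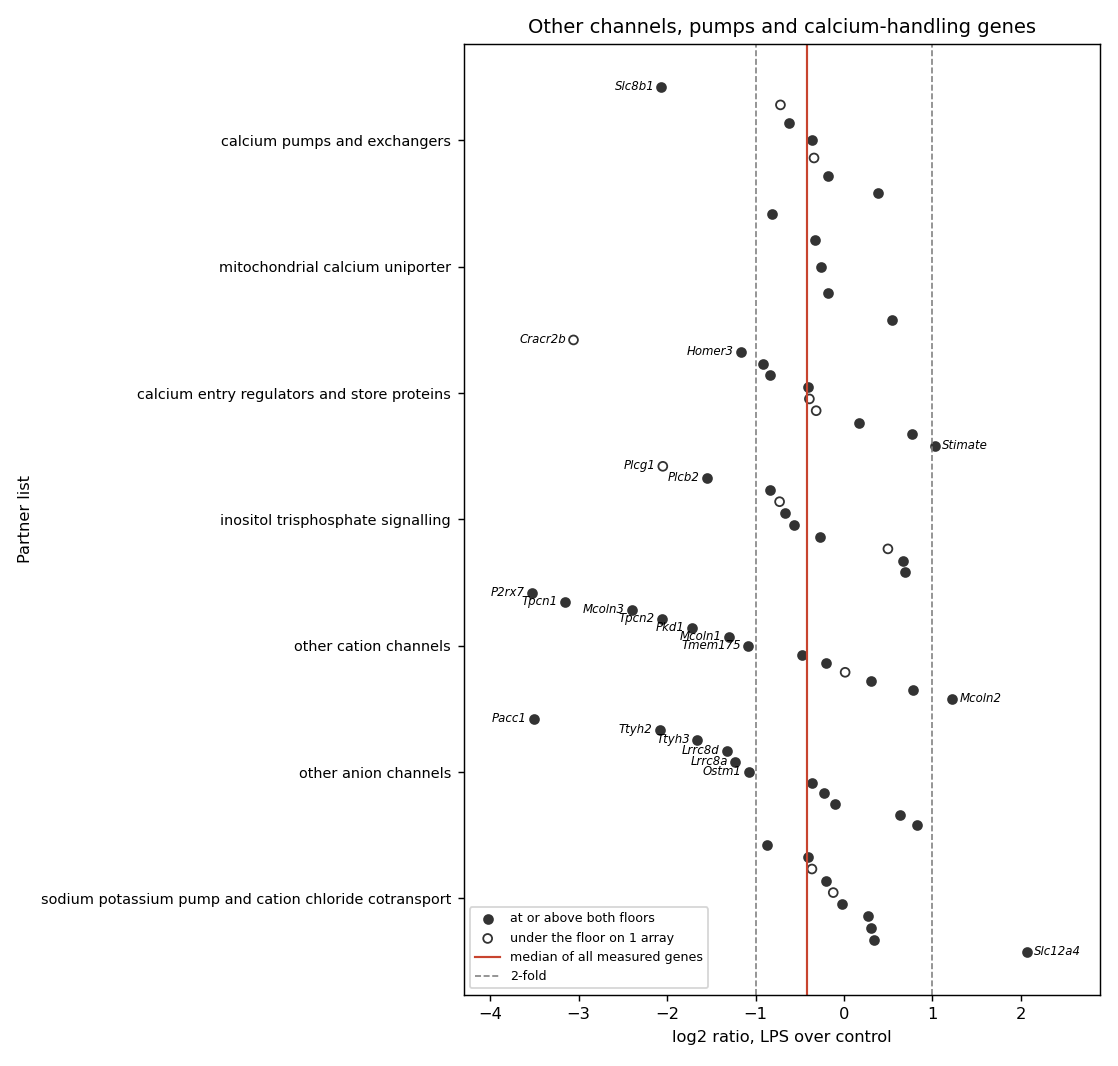
log2 ratio, LPS over control, of the 66 partner genes with a ratio, in rows by list; filled points reach the floor on both arrays and open points on 1. The named genes lie past the dashed 2-fold lines, 18 of them on the lower and 3 on the higher side, and 13 of the 18 belong to the rows of other cation and other anion channels. The lists were chosen with earlier results of these data known.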

How the data were processed

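Members and lists were chosen with earlier results of these data known. The values are linear intensity values deposited by the authors as MAS5 signals, per the submitters' processing notes. The MAS5 version, scaling target and detection calls were not given in the sources used here. Control and LPS arrays were told apart by their titles in the labels, and 0 columns were left unused. Of 45037 non-control probe sets, 34945 had 1 gene in the platform annotation (18193 genes), 932 had several, and 9160 were not listed with a gene. All 69 members had a RefSeq identifier and 0 changed symbol. No scaling was added. Each array's median (50th percentile) was its floor, and each gene was represented by its brightest probe set (mean log2 signal over both arrays).

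With 1 array per condition no p-value was computed, genes were counted at 2-fold, and the number of arrays limits the precision. Every measured channel gene could be named, along with up to 4 partner genes per list with the largest ratios and partners past 2-fold. Mcoln1, Mcoln2, Lrrc8a, Lrrc8c, Saraf, the motifs and the pairs of related genes were picked after their values were seen. Alternatives were lower and higher floors (35th, 65th percentile), no floor but a pseudocount of 16, 5 scalings (quantile, median centring, loess with span 0.4, hybridization controls and poly-A controls), the median of probe sets, probe sets with the plain suffix _at alone, both floors reached, and 3-fold and 1.5-fold thresholds. The steps were tested on simulated data, with 3-fold changes set only in genes bright on both arrays and with no array-wide shift. That simulation could not check changes near the floor or how the scalings handle such a shift. Python 3.11.15, pandas 2.3.3, numpy 2.4.6 and statsmodels 0.14.6 were used.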

Additional observations from a re-analysis of the deposited data

How the results depend on the processing

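No gene changed direction among the 11 named as past 2-fold. Clic4, Kcnab2, Kcnk13, Kcnk6 and Orai3 passed 2-fold in all 11 alternatives with a value. Some of these could only return the deposited value. A changed floor does so for a bright gene, and a probe set alternative for a gene with 1 probe set. The channel counts, 3 higher and 8 lower as deposited, became 7 and 14 at the lower (35th percentile) floor, 5 and 4 under quantile normalization, 5 and 5 after median centring and 6 and 4 with loess. There were 7 higher with the pseudocount of 16 and 1 with the median of probe sets. At a threshold of 3-fold the counts were 1 and 4, and at 1.5-fold 5 and 27. The channel median of -0.35 became 0.064 under quantile normalization, 0.073 after median centring, 0.11 with loess and -0.060 with poly-A scaling, so its sign is not settled. Partner genes higher, 3 as deposited, were 9 under quantile normalization, 9 after median centring, 10 with loess, 6 with poly-A scaling, 1 with plain probe sets alone, and 1 and 9 at the 3-fold and 1.5-fold thresholds. Partner genes lower, 18 as deposited, were 10 with loess and 11 at 3-fold. Of the 57 channel genes not past 2-fold, 20 changed sign under at least 1 of the 5 scalings. Among the measured genes of the whole array, the share of calls that were higher was 23.9% as deposited, 42.7% under quantile normalization, 46.2% after median centring, 52.7% with loess and 37.7% with poly-A scaling. No paired analysis was possible because each condition has 1 array. For a median, which has no replicate spread here, a move was judged against the median SD between probe sets of a gene, 0.28. Signals near the floor limit what can be read: 31 of the 68 genes reached it on 1 array only, a share not counted over all measured genes.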

Other observations

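Pairs outside the store-operated genes also differed, and they were picked after their values were seen. The log2 ratio of Kcnab1 exceeded that of Kcnab2 by at least 2.60, with the Kcnab1 control signal under the floor. Kcnn4 and Kcnk6, both potassium channel genes above the floor on both arrays, differed by 2.18 on the log2 scale, or 4.52-fold, and by 1.92 with the other Kcnn4 probe set. Beside the probe sets of 1 gene, 2 probe sets assigned to several genes name a channel gene and were not used.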
